A study of Mus musculus with 7 samples.

Results

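The genes described here are 10 that are widely used to describe TREM2-bearing, lipid-associated macrophages: Trem2, Tyrobp, Apoe, Gpnmb, Spp1, Lpl, Cd9, Fabp5, Lgals3 and Cd63. They were taken by name out of the 23361 genes in the deposited table, and all 10 were present and passed the filter on low counts. They were measured by RNASeq in macrophages from the regenerative bridge, the tissue that grows between the stumps of a cut nerve. Wild-type mice of the inbred BALB/cJ strain had a sciatic nerve transected and repaired with an inert conduit, and macrophages were sorted from it by flow cytometry as Lin-F4/80+CD14+CD11b+CD16/32+ cells. Day 5 after the repair had 3 libraries, day 14 had 2 and day 28 had 2, each labelled as an independent biological replicate. All mice carried the injury, so no group shows the level in an uninjured nerve, and the age of the mice and the number pooled into a library are not given in the sources used here. The libraries held 18027190 to 35247116 fragments assigned to genes, with day 28 replicate 1 the deepest. The least covered value among the 10 genes, that of Cd9 in a library of day 5, rested on 2658 fragments.

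TREM2 is a receptor of macrophages and microglia that binds lipids, lipoproteins and cell debris. It has no signalling tail of its own and passes its signal through the adaptor DAP12, which Tyrobp encodes, to the kinase SYK. Macrophages that take up much lipid, in fat tissue, in atherosclerotic plaques and around damaged myelin, are known to switch on a set of genes with Trem2 that handle lipid, lysosomal cargo and matrix. Cut nerves hold large amounts of myelin debris, which macrophages clear.

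The region just before and after the start of transcription is shown for 4 of the 10 genes, namely the receptor gene Trem2 and 3 of the 4 genes with the larger differences between days, Gpnmb, Spp1 and Cd9; the other one is Lpl. The windows hold 250 bases before the RefSeq start and 30 bases from it on, in the GRCm38.p6 build, written in the direction of the gene. Capitals mark every match to the AP-1 motif TGANTCA, which reads alike on both strands. They also mark the PU.1 core, which is GAGGAA on the strand of the gene and reads as the reverse complement where the match is on the opposite strand, and no matches of the motifs overlapped. PU.1 and AP-1 are factors of macrophage genes. The CLEAR E-box TCACGTG and the M-box TCATGTG, bound by the MiT family of lysosomal regulators, were searched on both strands as well. The Trem2 window, chr17:48346151-48346430 on the plus strand, held an AP-1 match at -9 to -3 and a PU.1 core at -40 to -35.
Trem2: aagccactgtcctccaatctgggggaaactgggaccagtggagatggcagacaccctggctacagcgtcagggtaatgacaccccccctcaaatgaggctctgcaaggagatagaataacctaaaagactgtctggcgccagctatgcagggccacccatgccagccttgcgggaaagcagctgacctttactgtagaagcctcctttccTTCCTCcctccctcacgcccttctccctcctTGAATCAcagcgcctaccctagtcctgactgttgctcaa
The Gpnmb window, chr6:49036268-49036547 on the plus strand, held an AP-1 match at 9 to 15 bases from the start.
Gpnmb: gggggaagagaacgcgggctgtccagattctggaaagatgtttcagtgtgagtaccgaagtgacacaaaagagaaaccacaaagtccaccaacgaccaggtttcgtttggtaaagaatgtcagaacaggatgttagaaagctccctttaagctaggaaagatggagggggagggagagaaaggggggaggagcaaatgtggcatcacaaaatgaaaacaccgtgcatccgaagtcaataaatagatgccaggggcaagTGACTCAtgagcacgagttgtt
The Spp1 window, chr5:104434861-104435140 on the plus strand, held a PU.1 core at -113 to -108.
Spp1: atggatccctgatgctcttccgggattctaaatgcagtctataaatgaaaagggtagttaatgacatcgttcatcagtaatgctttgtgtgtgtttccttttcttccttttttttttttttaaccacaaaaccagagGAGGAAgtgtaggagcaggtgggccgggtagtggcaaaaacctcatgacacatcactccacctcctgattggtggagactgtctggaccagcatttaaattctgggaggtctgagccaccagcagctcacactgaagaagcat
The Cd9 window, chr6:125494731-125495010 on the minus strand, held none of these letters.
Cd9: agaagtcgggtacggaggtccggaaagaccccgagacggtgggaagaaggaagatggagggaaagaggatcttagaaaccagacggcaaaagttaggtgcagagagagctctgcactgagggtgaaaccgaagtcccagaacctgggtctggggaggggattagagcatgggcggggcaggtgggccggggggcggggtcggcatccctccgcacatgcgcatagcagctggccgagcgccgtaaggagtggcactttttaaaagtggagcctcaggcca
Among 32851 RefSeq windows of this length, 7.46% held the AP-1 letters, 26.0% the PU.1 core, 3.62% the CLEAR E-box and 3.60% the M-box. Windows were found for 7 of the 10 genes and not for Tyrobp, Lpl and Fabp5. The PU.1 core was also in those of Apoe and Cd63, that of Lgals3 had no match, and no window held the E-box or the M-box. A match is a match of letters, not a bound site.

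Between day 5 and day 28, 7 of the 10 genes rose and 1 fell. Lpl, the lipase that frees fatty acids from lipoproteins, rose the most, 6.82-fold, followed by the tetraspanin gene Cd9 (4.16-fold), Spp1, which encodes the secreted matrix protein osteopontin (3.52-fold), and Gpnmb, a glycoprotein of lysosomes and the cell surface (2.86-fold). Cd63 rose 1.81-fold, Lgals3 1.39-fold and Trem2 1.30-fold. Fabp5, a fatty acid carrier of the cytosol, fell to 0.665 of its day 5 level, while Tyrobp (0.898) and Apoe (0.636) did not pass the test. These are ratios fitted to counts by edgeR, and a gene was called differentially expressed (DE) at an adjusted p under 0.05 over 12858 genes tested. Of all tested genes, 15.2% were DE in this comparison, 7.74% higher and 7.51% lower, against 8 of the 10. The 10 genes were chosen with earlier results of these data known. The median log2 fold change was 0.66 for the 10 genes and 0.033 for all tested genes. Levels in all libraries of day 28 were above all of day 5 for 7 of the 10 genes, where 26.0% of tested genes showed this, and below them for the other 3, where 25.6% did. As whole populations were sequenced, a change in the number of cells of a type and a change in RNA per cell cannot be told apart. The summed FPKM of markers of osteoclasts and multinucleated giant cells, Ctsk, Acp5, Ocstamp, Dcstamp and Calcr, moved with these rises. It was 110.02 to 156 at day 5, 318 and 505 at day 14 and 609.8 and 634 at day 28. Most of it was Ctsk and Acp5, while Ocstamp and Dcstamp stood at 15.7 FPKM or less in every library and Calcr at 0. The part of such cells in the result was not tested.

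**Figure D1:**
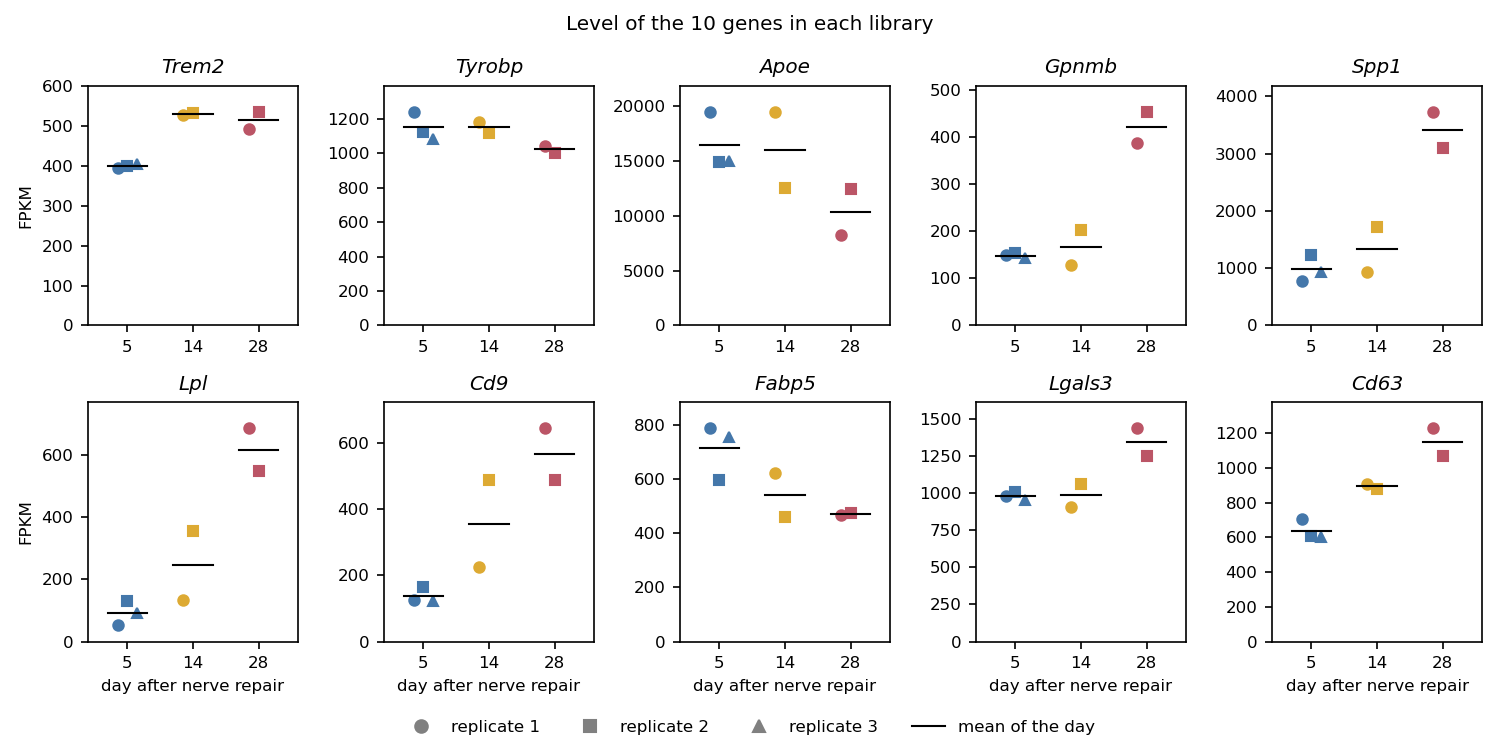
Level of each of the 10 genes in FPKM (fragments scaled for transcript length and library size, vertical axis from 0, own scale per gene) against the day after nerve repair. Each point is a library, its shape gives the replicate number and the line is the mean of the day: the 2 points of day 28 stand above all 3 of day 5 for Trem2, Gpnmb, Spp1, Lpl, Cd9, Lgals3 and Cd63 and below them for Tyrobp, Apoe and Fabp5.

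Between neighbouring days Cd9 alone was called. From day 5 to day 14 it was the only DE gene among the 10, rising 2.61-fold (log2 fold change 1.39, SE 0.29, edgeR adjusted p = 0.0347), where 4.78% of all tested genes were DE and 2.84% were DE and higher. Levels of both day 14 libraries lay above all of day 5 for Trem2, Lpl, Cd9 and Cd63, 4 of the 10, against 21.9% of tested genes, and below them for 0 of the 10, against 21.4%. From day 14 to day 28 none of the 10 was DE, where 0.0622% of all genes were. In that step 6 of the 10 and 1570 of all 12858 genes had an unadjusted p under 0.05, DESeq2 called 2 of the 10 and 346 of all genes, and limma on log2(FPKM + 1) called 0 of either. Levels of both day 28 libraries lay above those of day 14 for Gpnmb, Spp1, Lpl, Cd9, Lgals3 and Cd63, 6 of the 10, against 19.3% of tested genes, and below them for Tyrobp and Apoe, 2 of the 10, against 19.7%. For Cd9 the margin over the higher library of day 14 was under 1 FPKM. A test of whether the log2 step from day 14 to day 28 differed in size from that from day 5 to day 14 called none of the 10 (edgeR; 0.0156% of all genes). At an unadjusted p under 0.05 it found 2 of the 10 and 1621 of all genes. DESeq2 called Gpnmb alone of the 10 (difference 1.18, adjusted p = 0.038), with 200 of all genes, and limma called 0. Gpnmb was also called without day 14 replicate 2 (difference 1.93, adjusted p = 0.01), and Cd9 without day 14 replicate 1 (-1.63, adjusted p = 0.0489). The 3 pairwise comparisons share libraries and are not independent of each other.

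**Figure D2:**
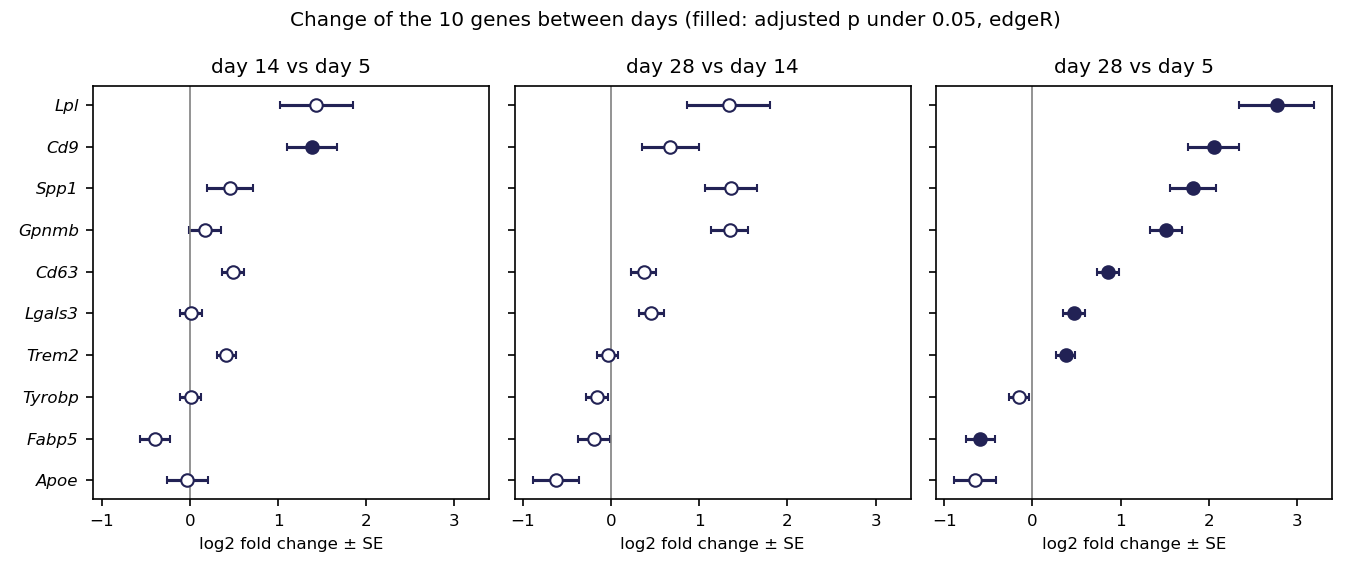
Log2 fold change of the 10 genes between days (horizontal axis, with the standard error as a bar) as fitted by edgeR, in a panel for each pair of days. Filled points have an adjusted p under 0.05: only Cd9 in the first panel, none in the second, and all but Tyrobp and Apoe in the third.

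Trem2 (GRCm38 chr17:48346401-48354147, plus strand) stood at 394, 399 and 406 FPKM in day 5 replicates 1, 2 and 3. It stood at 527 and 533 FPKM in day 14 replicates 1 and 2, and at 493 and 537 FPKM in day 28 replicates 1 and 2. All 4 later libraries were above all 3 of day 5, and the day 14 and day 28 ranges overlapped. The log2 fold change was 0.42 from day 5 to day 14 (SE 0.11, edgeR adjusted p = 0.0562), -0.04 from day 14 to day 28 (SE 0.12, adjusted p = 0.923) and 0.38 from day 5 to day 28 (SE 0.11, adjusted p = 0.0429). The last call was near the threshold and was lost when any library of day 5 or day 28 was left out (adjusted p 0.0972 to 0.14), with a log2 fold change of 0.32 to 0.44. With the receptor gene's mean at 399.8 ± 5.75 (SD, n = 3), 530.3 ± 4.32 (n = 2) and 515 ± 30.6 FPKM (n = 2), its replicates at days 5 and 14 lay closer together, in proportion to the mean, than those of any other of the 10 genes.

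Tyrobp (chr7:30413760-30417585, plus strand), the gene for the adaptor that TREM2 shares with other receptors, stood at 1239.8, 1123 and 1082 FPKM at day 5. The libraries of day 14 stood at 1181 and 1115 FPKM and those of day 28 at 1041 and 1002 FPKM. The day 28 libraries were the lowest, but the distance was small beside the spread within day 5, and no comparison passed the test (log2 fold change from day 5 to day 28 -0.16, SE 0.11, edgeR adjusted p = 0.39). It was not called under any of 15 alternatives either. The ratio of Tyrobp to Trem2, both in FPKM, was 2.67 to 3.14 at day 5, 2.24 and 2.09 at day 14 and 2.11 and 1.87 at day 28, so that the adaptor transcript exceeded that of the receptor in every library.

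Among the lipid genes, Apoe (chr7:19696109-19699188, minus strand), which encodes the lipoprotein that carries cholesterol out of macrophages and is itself bound by TREM2, was among the 4 most abundant of all genes in every library. It stood at 19416, 14885 and 14946 FPKM at day 5, at 19479.7 and 12564 at day 14 and at 8252 and 12450.4 at day 28. The day 28 libraries were the lowest, yet day 28 replicate 2 was close to day 14 replicate 2, and day 14 replicate 1 was as high as the highest of day 5. From day 5 to day 28 the log2 fold change was -0.65 (SE 0.24, edgeR adjusted p = 0.0932). That p fell under the threshold in 5 of 15 alternatives, among them DESeq2 (adjusted p = 0.0187) and the fits without either library of day 14 (0.026 and 0.0263).

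Lpl (chr8:68880491-68907448, plus strand) had the highest ratio of the 10 between its highest and its lowest library. At day 5 it stood at 52.6, 130.2 and 91.4 FPKM, at day 14 at 134 and 356 FPKM and at day 28 at 687 and 547 FPKM. The libraries of each day lay above all those of the day before, although day 14 replicate 1 exceeded day 5 replicate 2 by little. The rise from day 5 to day 28 was 2.77 on the log2 scale (SE 0.42, edgeR adjusted p = 0.00446), and the steps of 1.44 (SE 0.42, adjusted p = 0.0773) and 1.33 (SE 0.47, adjusted p = 0.298) did not pass the test. In proportion to the mean, the spread at days 5 and 14 was the largest of the 10 genes as well, with a mean of 91.4 ± 38.8 FPKM (SD, n = 3) at day 5, 245 ± 157 (n = 2) at day 14 and 617 ± 98.9 (n = 2) at day 28. The ratio of Apoe to Lpl, both in FPKM, went from 368.9, 114 and 164 at day 5 to 145 and 35.3 at day 14 and 12.0 and 22.8 at day 28.

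Fabp5 (chr3:10012548-10016607, plus strand) was the only DE gene of the 10 that fell. It stood at 789.9, 596 and 757 FPKM at day 5, at 622 and 459.9 FPKM at day 14 and at 466 and 474 FPKM at day 28. Both libraries of day 28 were below all of day 5, and day 14 replicate 1 lay inside the day 5 range. The log2 fold change from day 5 to day 28 was -0.59 (SE 0.17, edgeR adjusted p = 0.0445). The call was lost without day 5 replicate 1 (adjusted p = 0.137), day 5 replicate 3 (0.125), day 28 replicate 1 (0.191) or day 28 replicate 2 (0.139), and by limma on log2(FPKM + 1) (0.0564). Fabp5 has processed pseudogenes, and how the authors shared reads between near-identical copies is not given in the sources used here, which leaves its level uncertain.

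Spp1 (chr5:104435118-104441050, plus strand) rose from 779.8, 1225 and 933 FPKM at day 5 to 3733 and 3095 FPKM at day 28. The day 14 libraries stood at 939 and 1727 FPKM, the first inside the day 5 range and the second above it. The log2 fold change was 1.82 from day 5 to day 28 (SE 0.26, edgeR adjusted p = 0.00345), made up of 0.46 in the earlier step (SE 0.26, adjusted p = 0.322) and 1.36 in the later one (SE 0.29, adjusted p = 0.11). Among all genes Spp1 ranked between 8 and 105 by FPKM, and at day 28 it was second to Apoe among the 10. Its start overlaps a short gene model on the same strand, Gm42793, which the deposited table does not list.

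Gpnmb (chr6:49036546-49070929, plus strand) had closely spaced replicates at day 5, with 149, 153 and 143 FPKM. Day 14 replicate 1 stood below them at 128 FPKM and replicate 2 above them at 203 FPKM, and the day 28 libraries stood at 387 and 453 FPKM. The day 28 libraries were far above all others, while the day 14 libraries lay on either side of day 5. The log2 fold change was 1.52 from day 5 to day 28 (SE 0.18, edgeR adjusted p = 0.00183), the smallest adjusted p of the 10 genes. It was 0.17 from day 5 to day 14 (SE 0.18, adjusted p = 0.615) and 1.34 from day 14 to day 28 (SE 0.21, adjusted p = 0.0554), and the later step was called by DESeq2 (adjusted p = 3.8e-08) and without day 14 replicate 1 (0.0327) or replicate 2 (0.000261).

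Lgals3 (chr14:47367751-47386160, plus strand) encodes galectin-3, a lectin that binds damaged lysosomes and has been described as a ligand of TREM2. It stood at 977, 1008 and 955 FPKM at day 5, at 908 and 1059.9 at day 14 and at 1438 and 1251 at day 28. Day 14 bracketed the day 5 range and both libraries of day 28 were above all others. The rise from day 5 to day 28 was 0.47 on the log2 scale (SE 0.13, edgeR adjusted p = 0.0366). It was lost when any library of day 5 or day 28 was left out (adjusted p 0.0548 to 0.193).

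The tetraspanins Cd9 and Cd63 are membrane proteins, the first mostly of the cell surface and the second of late endosomes and lysosomes. Cd9 (chr6:125460266-125494791, minus strand) stood at 124, 166 and 122 FPKM at day 5, at 225 and 489 at day 14 and at 647 and 489 at day 28. Day 14 replicate 2 was at the level of day 28 replicate 2, and day 14 replicate 1 lay between. The log2 fold change was 2.06 from day 5 to day 28 (SE 0.29, edgeR adjusted p = 0.00313). The call from day 5 to day 14 held in 5 of 15 alternatives; it was lost without day 5 replicate 1 (adjusted p = 0.116), 2 (0.0741) or 3 (0.107), day 14 replicate 2 (0.0928) and day 28 replicate 1 (0.0578) or 2 (0.058), while the adjusted p without day 14 replicate 1 was 0.000218. Genes on the opposite strand overlap Cd9 (Gm28809 and Gm26728) and are not in the table. Their reads cannot be told apart from those of Cd9 if strand was not used, which is not stated.

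Cd63 (chr10:128900989-128912822, plus strand) was at 705, 609.7 and 605 FPKM at day 5, 909.9 and 877 FPKM at day 14 and 1232 and 1067 FPKM at day 28. Here the libraries of each day lay above all those of the day before, and day 14 fell near the middle of the way. The log2 fold change was 0.49 from day 5 to day 14 (SE 0.13, edgeR adjusted p = 0.0562), 0.37 from day 14 to day 28 (SE 0.14, adjusted p = 0.337) and 0.86 from day 5 to day 28 (SE 0.13, adjusted p = 0.00357).

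The rises of Gpnmb, Spp1, Lpl, Cd9 and Cd63 from day 5 to day 28 had an adjusted p under 0.01 and were called in all 15 alternatives, whatever library was left out. Those of Trem2 and Lgals3 were called in 7 of 15 and the fall of Fabp5 in 8 of 15. Leaving out any single library of day 5 or day 28 reduced the count of DE genes among the 10 from 8 to 5 or 6, while leaving out either library of day 14 gave 9. The count over all genes moved alike, from 1960 to between 457 and 1027 in the former fits and to 2782 and 2764 in the latter.

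The 2 libraries of day 14 stood apart from each other in 7 of the 10 genes, Gpnmb, Spp1, Lpl, Cd9, Apoe, Fabp5 and Lgals3. Placed on the way from the day 5 mean to the day 28 mean of log2 CPM (counts scaled for library size), day 14 replicate 1 was at -1.72% for Spp1, -13.8% for Gpnmb, 22.7% for Lpl and 35.3% for Cd9. Replicate 2 was at 46.8%, 31.2%, 72.7% and 90.3% for the same genes, farther along for each. The same held for Apoe (-38.9% and 53.5%), Fabp5 (32.3% and 105%) and Lgals3 (-23.1% and 27.8%). Tyrobp was at -29.9% and 16.3% of a way that was itself small. Trem2 was at 106% and 114% and Cd63 at 59.9% and 55.2%, with the replicates close together. Summed markers of fibroblasts, such as Col1a1 and Col3a1, stood at 223 FPKM in day 14 replicate 1 and at 81.2 in replicate 2, against 28.8 to 74.1 at day 5 and 35.6 and 57.0 at day 28; their part in the difference was not tested. Without day 14 replicate 1, 5 of the 10 genes were DE between days 5 and 14: Cd9, Lpl (log2 fold change 1.98), Spp1 (0.83) and Gpnmb (0.47) higher and Fabp5 (-0.62) lower. In that fit 1744 of all genes were DE, against 614 with both libraries. Without replicate 2 Cd9 was no longer DE (adjusted p = 0.0928), and the log2 fold changes of Spp1 (-0.05) and Gpnmb (-0.21) changed sign. The later step took the opposite course, since without day 14 replicate 2 Gpnmb, Spp1, Lpl and Cd9 were DE from day 14 to day 28, with log2 fold changes of 1.72, 1.87, 2.21 and 1.34, and 652 of all genes were DE there, against 8 with both libraries. In each of these fits the remaining day 14 library was taken to vary like the other days.

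**Figure D3:**
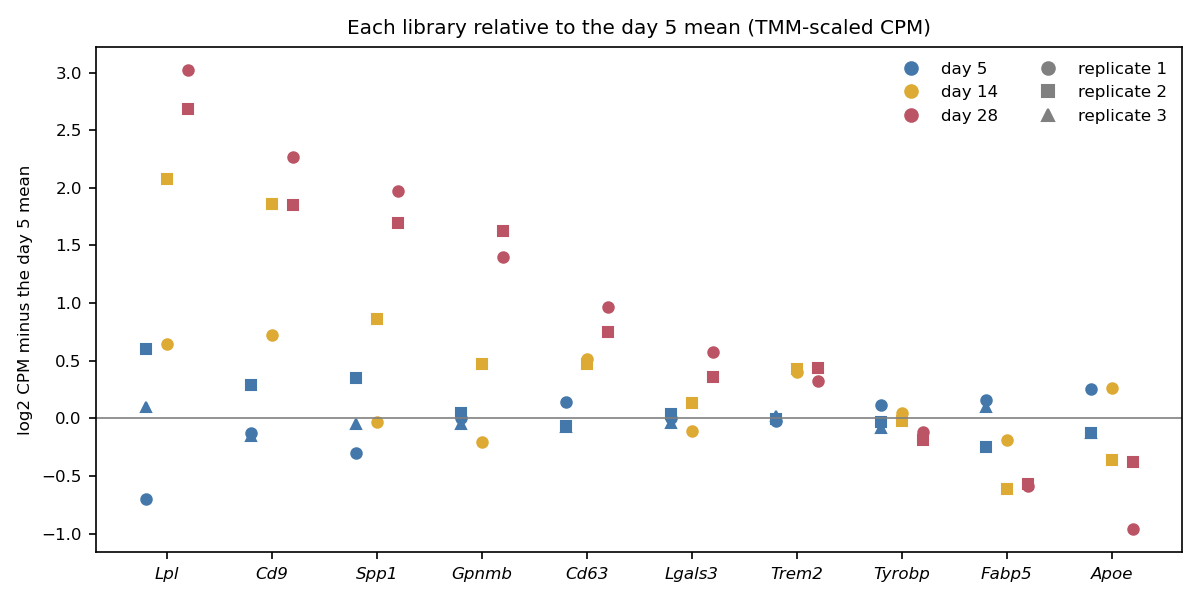
Log2 CPM of each library (TMM scaling) minus the mean of the 3 day 5 libraries, for the 10 genes ordered by their change from day 5 to day 28. Colours give the day and shapes the replicate number: for Lpl, Cd9, Spp1 and Gpnmb day 14 replicate 2 (yellow square) stands well above day 14 replicate 1 (yellow circle), while for Cd63 and Trem2 the 2 nearly coincide.

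Since FPKM is scaled for transcript length, levels can also be ordered between genes. At day 5 the order of the means was Apoe, Tyrobp, Lgals3, Spp1, Fabp5, Cd63, Trem2, Gpnmb, Cd9 and Lpl. The ranges of the neighbours from Lgals3 to Cd63 and from Gpnmb to Lpl overlapped, so those places are not separated. At day 28 the order was Apoe, Spp1, Lgals3, Cd63, Tyrobp, Lpl, Cd9, Trem2, Fabp5 and Gpnmb, and among these the ranges of Lpl and Cd9 and of Cd9 and Trem2 overlapped. Day 14 gave an order between these, led by Apoe, Spp1, Tyrobp and Lgals3 and closed by Cd9, Lpl and Gpnmb, whose ranges overlapped. Spp1 thus moved from the level of Lgals3 at day 5 to 3414 ± 452 FPKM (SD, n = 2) at day 28, where Lgals3 was at 1345 ± 132 FPKM. Without Apoe, the 10 genes summed to 5095 to 5410.2 FPKM at day 5, 5574 and 6820.2 at day 14 and 10125 and 8915 at day 28. With Apoe they held 2.03% to 2.61% of all fragments in each library.

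Of other genes described in lipid-laden, foamy or disease-associated macrophages and microglia, all 30 on a list were tested. The list was chosen with earlier results of these data known. From day 5 to day 28, 10 rose and 3 fell, where 7.74% of tested genes were DE and higher and 7.51% DE and lower. The lysosomal protease gene Ctsk rose by 2.93 on the log2 scale (SE 0.27, edgeR adjusted p = 0.000706), the glucan receptor gene Clec7a by 2.15 (SE 0.19, adjusted p = 0.000641) and Atp6v0d2, a subunit of the proton pump, by 3.67 (SE 0.36, adjusted p = 0.000809). Itgax, which encodes the integrin CD11c, rose from 6.41, 18.3 and 6.55 FPKM at day 5 to 34.1 and 170.4 at day 14 and 294 and 267 at day 28. Its log2 fold change from day 5 to day 28 was 4.77 (SE 0.66, adjusted p = 0.00291). Mmp12, Axl, Igf1, Acp5 and Lipa were among the others that rose. The 3 that fell handle stored lipid: Plin2, the coat protein of lipid droplets (log2 fold change -0.92, adjusted p = 0.00378), and the cholesterol exporters Abca1 (-0.91, adjusted p = 0.00464) and Abcg1 (-0.74, adjusted p = 0.00464). The median log2 fold change of the 30 was 0.088, against 0.033 for all tested genes. From day 5 to day 14, 8 of the 30 rose and 3 fell. In that comparison 4.78% of all tested genes were DE in either direction, and 2.84% were DE and higher.

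Most of the genes that carry or end the TREM2 signal had a negative log2 fold change from day 5 to day 28. Most of them were not DE. Of 13 listed genes, 12 were tested (Ms4a4a was not analysed here). From day 5 to day 28, 1 rose and 4 fell, where 7.74% of tested genes were DE and higher and 7.51% DE and lower. A positive log2 fold change was seen in 2 of the 12, and the median was -0.31, against 0.033 for all tested genes. Blnk, an adaptor downstream of SYK, rose from 31.8, 32.0 and 32.6 FPKM at day 5 to 63.7 and 52.5 at day 14 and 68.7 and 79.2 at day 28. It was DE from day 5 to day 14 (log2 fold change 0.86, SE 0.12, edgeR adjusted p = 0.0119) and from day 5 to day 28 (1.21, SE 0.12, adjusted p = 0.0008). Ms4a6d, of a family whose human members have been linked to soluble TREM2, fell by 1.04 on the log2 scale (SE 0.18, adjusted p = 0.00742). Vav1 fell by 0.66 (edgeR adjusted p = 0.0239), Pik3ap1 by 0.73 (adjusted p = 0.0459) and Hcst, the gene for the related adaptor DAP10, by 0.63 (adjusted p = 0.0474). The calls of Pik3ap1 and Hcst were near the threshold. Syk itself was not DE (-0.30 on the log2 scale, adjusted p = 0.289), and the sheddase genes Adam10 (-0.08) and Adam17 (-0.35) were not DE.

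The 5 other genes of the TREM family were all at 25.2 FPKM or less in every library. From day 5 to day 28, 1 rose and 2 fell, where 7.74% of tested genes were DE and higher and 7.51% DE and lower. Treml1 rose (log2 fold change 1.84, SE 0.54, edgeR adjusted p = 0.0489), and Trem1 and Treml2 fell. The level of Treml1 was low, at 0.443, 0.524 and 1.03 FPKM at day 5, on 11, 11 and 23 fragments. It stood at 0.976 and 1.75 FPKM at day 14 and at 3.15 and 1.53 FPKM at day 28. Trem1, an activating receptor that also signals through DAP12, went from 20.5, 24.4 and 24.8 FPKM at day 5 to 18.1 and 25.2 at day 14 and 11.8 and 9.23 at day 28 (log2 fold change -1.12, SE 0.18, adjusted p = 0.00495). Treml2 fell by 2.17 (SE 0.22, adjusted p = 0.000931), and also from day 14 to day 28 (-1.98, adjusted p = 0.0344). Treml4 rose from day 5 to day 14 (1.17, adjusted p = 0.0184).

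Of 14 transcription factors that the field ties to these genes, 5 rose and 3 fell from day 5 to day 28. Over all tested genes, 7.74% were DE and higher in this comparison and 7.51% DE and lower. Bhlhe41 (log2 fold change 1.09, SE 0.19, edgeR adjusted p = 0.00702) and Bhlhe40 (0.87, SE 0.16, adjusted p = 0.00955) led those that rose. The others were Tfeb (0.77, adjusted p = 0.0155), Mitf (0.65, adjusted p = 0.0411) and Cebpa (0.58, adjusted p = 0.0426), with the calls of Mitf and Cebpa near the threshold. Tfeb and Mitf belong to the MiT family of lysosomal regulators, whose other members Tfec (-1.10, adjusted p = 0.00861) and Tfe3 (-0.61, adjusted p = 0.0096) fell. Nr1h3, the gene for the sterol receptor LXR alpha, which drives Apoe, Abca1 and Abcg1, fell as well (-0.85, SE 0.15, adjusted p = 0.00731). The PU.1 gene, listed as Sfpi1, had a log2 fold change of -0.27 (adjusted p = 0.205).

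**Figure D4:**
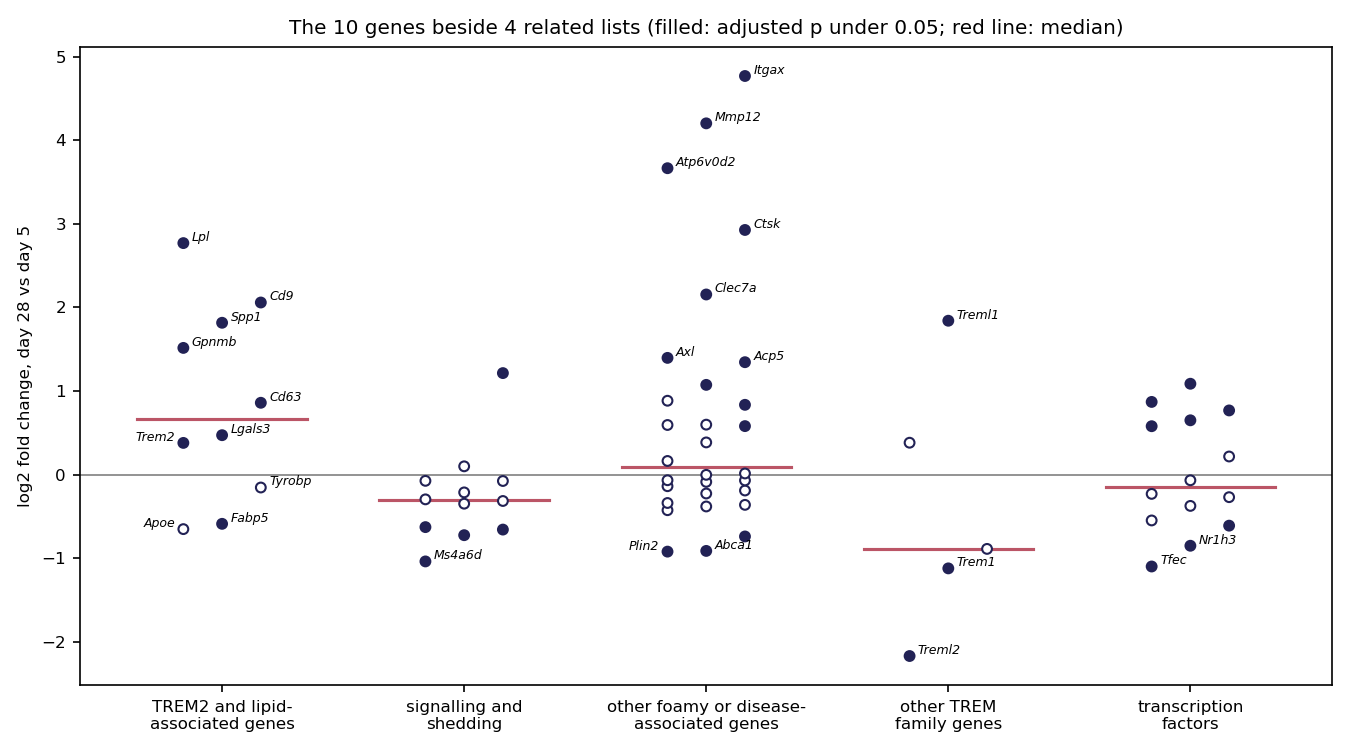
Log2 fold change from day 5 to day 28 (vertical axis, edgeR) of the 10 genes and of the tested genes of the 4 related lists, a point per gene. Filled points have an adjusted p under 0.05 and the red line is the median: 0.66 for the 10 genes, -0.31 for signalling and shedding, 0.088 for the other foamy or disease-associated genes, -0.89 for the other TREM family genes and -0.15 for the transcription factors.

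The libraries held the markers of the sorted cells. The genes for the sort antigens and macrophage markers, Cd14, Emr1 (F4/80), Itgam (CD11b), Fcgr3, Fcgr2b, Csf1r and Cd68, were each at 195 FPKM or more in every library, and Cd14 (log2 fold change -0.76) and Emr1 (-1.01) fell from day 5 to day 28. Of 8 Schwann cell genes, 7 were at 0.247 FPKM or less throughout, and Mbp, at 10.3 to 19.8 FPKM, rose from day 5 to day 28 (log2 fold change 0.75). Eosinophil markers summed to 2.28 FPKM or less in any library, and T cell and B cell markers to 0.737 FPKM or less in any library. Of the 5 osteoclast and giant cell markers, the 4 tested all rose from day 5 to day 28. Over all tested genes, 7.74% were DE and higher in this comparison. Calcr was at 0 in every library, and Ctsk and Acp5 are also on the list of other foamy or disease-associated genes above. Neutrophil markers summed to 239 to 275 FPKM at day 5, 495 and 513 at day 14 and 252 and 103 at day 28. Nearly all of that sum was S100a8 and S100a9, neither of which was DE between any of the days. Mpo was at 0.2 FPKM or less and Elane at 0 in every library. Dendritic cell markers summed to 8.02 to 12.8, then 24.7 and 10.8, then 19.7 and 30.1. Endothelial markers went from 15.6 to 27.4 down to 14.9 and 10.6 and then 9.79 and 6.01, where Kdr (log2 fold change from day 5 to day 28 -3.02) and Pecam1 (-1.80) fell and Vwf (2.07) rose. The part of these cells in the results above was not tested.

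The genes whose course was most like that of a member were taken over the 7 libraries, by the root mean square difference of log2(FPKM + 1) after centring, among 7613 genes whose FPKM averaged 5 or more. For Trem2 these were Fuca1 (0.0359), Idh3g (0.045), Il3ra (0.048), Tysnd1 (0.0511) and Ndrg3 (0.0535), where the median over all genes was 0.279. Fuca1, the lysosomal fucosidase gene, had mean levels of 41.2, 55.2 and 53.8 FPKM at days 5, 14 and 28. For Gpnmb they were Chst11 (0.24), Arhgap25 (0.244), Srxn1 (0.248), Anxa3 (0.263) and Spp1 (0.268), against a median of 0.721. For Spp1 they included Procr (0.214), the cystine transporter gene Slc7a11 (0.233), Gpnmb (0.268) and Mmp19 (0.274), against a median of 0.867. Gpnmb and Spp1 were thus each on the list of the other.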

How the data were processed

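RNASeq values of 23361 genes in 7 libraries (days 5, 14 and 28) were used. The authors trimmed single-end reads with cutadapt 1.8, mapped them with TopHat2 2.0.13 to UCSC mm10 and quantified genes with Cuffdiff 2.2.1. They deposited the expected counts of a gene, a signal that is the same number after scaling of the libraries, and FPKM values adjusted for transcript length and library size. Use of strand and sharing of reads with several hits are not given in the sources used here. Of the expected counts, 0.947% were not whole, and 8 values had a failed quantification status, 0 of them among the 10 genes.

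Levels are the deposited FPKM values. Expected counts were rounded, and edgeR 4.0.16 (R 4.3.3) replaced the authors' test: TMM scaling, expression filter by time point, quasi-likelihood test over all 7 libraries with the day as sole factor, and Benjamini-Hochberg adjustment over 12858 genes. Standard errors were derived from the F statistic. The scripts were tested on simulated counts. p-values measure the spread between libraries only. Alternatives were DESeq2 1.42.0, limma 3.58.1 on log2(FPKM + 1) and log2(FPKM + 0.1), RLE and Cuffdiff scaling, no filter, fits on the 2 days compared, a replicate block, leaving out each library, and an adjusted p under 0.01 for counts.

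The 10 genes, the related lists and the marker lists were chosen with earlier results of these data known. By rule, all 10 genes were described in every library, and from the lists those with the lowest adjusted p per direction and those near a result. A few genes that fall under this rule are not reported here. Genes were matched by symbol, and Spi1 through its older name Sfpi1. Positions are from GENCODE M21 (GRCm38), promoters from RefSeq (GRCm38.p6). Python 3.11.15 with pandas 2.3.3, numpy 2.4.6 and matplotlib 3.10.9 was used.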

Additional observations from a re-analysis of the deposited data

How the results depend on the processing

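From day 5 to day 28 no direction changed in any alternative. The count of DE genes among the 10 was 8, with 5 to 9 when a library was left out, 6 by limma with either pseudocount, 5 with the replicate block and 5 at an adjusted p under 0.01. Of all genes 1960 were DE, with 457 without day 28 replicate 1 to 2782 without day 14 replicate 1 when a library was left out, 735 with the block and 597 at the stricter threshold. From day 5 to day 14, 1 of the 10 was DE: 3 by DESeq2 and without the filter, 0 by limma, in the fit on the 2 days, with the block and at the stricter threshold, and 0 to 5 when a library was left out. Of all genes 614 were DE, and 1392 by DESeq2, 1429 without the filter, 252 and 277 by limma, 325 in the fit on the 2 days, 6 with the block, 24 at the stricter threshold and 52 to 1744 when a library was left out. From day 14 to day 28 the 0 of 10 became 2 by DESeq2, 3 without the filter and 0 to 4 when a library was left out. Of all genes 8 were DE, and 346 by DESeq2, 390 without the filter, 0 by limma, in the fit on the 2 days, with the block and at the stricter threshold, and 0 to 652 when a library was left out. For the difference between the steps the 0 of 10 became 1 by DESeq2 and 0 to 1 when a library was left out, and of all genes the 2 became 200 by DESeq2, 229 without the filter, 0 by limma, with the block and at the stricter threshold, and 0 to 269. The cause was not tested.

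Over the values of single genes, 507 of 590 kept their direction and side of the threshold, 33 lost and 26 gained a call, and 24 changed sign. None of the values that changed sign had been called. For Tyrobp from day 5 to day 14 the log2 fold change became -0.0019 by DESeq2, -0.0019 with RLE, -0.00039 with Cuffdiff scaling and -0.032 with the block, and for Lgals3 -0.0043 with the block. For the difference between the steps of Lpl it became 0.14 by limma with either pseudocount and 0.15 with the block. With a library left out the ranges from day 5 to day 14 were -0.027 to 0.068 for Tyrobp, -0.37 to 0.25 for Apoe, -0.21 to 0.47 for Gpnmb, -0.053 to 0.83 for Spp1 and -0.11 to 0.13 for Lgals3, from day 14 to day 28 -0.10 to 0.016 for Trem2 and -0.39 to 0.031 for Fabp5, and for the difference between the steps -1.16 to 0.088 for Apoe, -1.19 to 1.66 for Lpl, -1.63 to 0.63 for Cd9 and -0.20 to 0.65 for Fabp5.

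Replicate numbers are shared between days, but the libraries are of different mice. Deviations of same-numbered libraries from their day's mean correlated weakly across 7613 genes. The values were 0.175 and 0.0449 between days 5 and 14 and 0.0842 and 0.0249 between days 5 and 28. Between days 14 and 28 the value was -0.0538 for both numbers. With 2 libraries in a day, their deviations from its mean are equal and opposite, so these values are not separate checks. They cannot decide whether same-numbered libraries belong together, and the main test did not treat them as pairs. Whether a number marks a shared day of sorting is not given in the sources used here. Among the 10 genes the block left Gpnmb, Spp1, Lpl, Cd9 and Cd63 DE from day 5 to day 28, and the calls of Trem2, Fabp5 and Lgals3 there and of Cd9 from day 5 to day 14 were lost. With 2 libraries at days 14 and 28, spread within those days is poorly known.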
